A study of Mus musculus with 8 samples.

Results

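The genes of glycolysis, lactate handling and the hypoxia response were followed in cultured mouse brain pericytes after treatment with TGF-β1. The 41 genes were taken by symbol from the 54532 Ensembl gene identifiers in the count tables and were placed along the pathway from glucose uptake to lactate export, followed by the hypoxia-inducible factor (HIF) system. Pericytes wrap capillaries and can contract them. TGF-β1 is a cytokine that cells secrete and that signals through SMAD proteins. Total RNA was sequenced from 8 primary cultures of wild-type mouse brain. Of these, 4 had received TGF-β1 at 5 μg/mL and 4 had received vehicle, and all were collected after 48 h. The cells were released from brain with papain, expanded in endothelial growth medium and then in pericyte medium, and characterized after passage 6, so both groups describe expanded cells in culture. The methods speak of isolates that each received both treatments, but the labels number the vehicle cultures 1 to 4 and the TGF-β1 cultures 5 to 8 and tie no number to an isolate. The groups were therefore compared as unpaired, and where cultures stem from a shared isolate the p-values measure only the spread between these samples, which may be partly technical.

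Glycolysis turns glucose into pyruvate. Hexokinase traps the sugar in the cell, phosphofructokinase commits it to breakdown, and the lower enzymes from GAPDH to pyruvate kinase recover ATP. Lactate dehydrogenase then reduces pyruvate to lactate, which leaves through monocarboxylate transporters, unless pyruvate enters mitochondria through the pyruvate dehydrogenase complex, a step that pyruvate dehydrogenase kinases close. Under low oxygen the α subunits of HIF escape hydroxylation by the EGLN enzymes, pair with ARNT and raise the transcription of many of these genes.

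The libraries held 45255235 to 47651397 counts each, which puts 3 counts at 0.0630 to 0.0663 CPM (the depth-normalised count, scaled to the library size). Between 68.5% and 70.2% of the counts from 1 to 20 were even numbers, so the independent fragments may be fewer than the counts. Pericyte markers summed to 1123 to 1186 CPM in the vehicle cultures and to 1295 to 1314 CPM in the TGF-β1 cultures, with 7 of 12 at 1 CPM or more (*Acta2* gave most of the sum). Of the 9 pericyte markers tested, 3 were higher with TGF-β1, *Pdgfrb* (log2 fold change 0.53) and *Cspg4* (1.03) among them. Another 2 were lower, *Rgs5* (-2.02, from 8.62 to 2.13 CPM) and *Anpep* (-0.43), and 4 were not called. In all, 55.6% of the 9 were called at an adjusted p under 0.05 (edgeR), against 41.3% of all genes tested. The brain pericyte markers *Kcnj8*, *Abcc9* and *Vtn* were below the filter on low counts. Fibroblast markers (6 genes) summed to 3717 to 3878 CPM with vehicle and 5327 to 5569 CPM with TGF-β1, mostly from *Col1a1* and *Col1a2*. Endothelial markers (8 genes) summed to 473 to 486 and 475 to 501 CPM. Among them *Cdh5* alone gave 349 to 383 CPM and *Flt1* 80.0 to 101 CPM, while *Pecam1* averaged 1.11 CPM in both groups. Macrophage and microglia markers (8 genes, *C1qb* at 0 in every culture) summed to 109 to 114 and 108 to 110 CPM, of which *Tmem119* alone gave 97.0 to 105 CPM. Astrocyte markers (5 genes) summed to 41.8 to 48.0 CPM with vehicle and 25.4 to 27.8 CPM with TGF-β1. Within them *Slc1a2* was lower (from 38.5 to 16.3 CPM) and *Aldh1l1* higher (from 5.16 to 8.79 CPM). Oligodendrocyte and neuron markers (7 genes) summed to 6.34 to 7.93 and 7.53 to 8.49 CPM. The pericyte, fibroblast and astrocyte sums thus did not overlap between the groups, and their part in the results below was not tested. In bulk RNA, a change in the number of cells of a type and a change in RNA per cell cannot be told apart.

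All 41 genes passed the filter on low counts (edgeR's filterByExpr), and most of them were higher with TGF-β1. Among 22544 genes tested by quasi-likelihood in edgeR, at an adjusted p under 0.05, 26 of the 41 were higher with TGF-β1 and 8 were lower, which is 82.9% called against 41.3% of all genes tested. The higher calls made up 63.4% of the list against 20.9% of all genes, and the lower calls 19.5% against 20.3%. The median log2 fold change of the 41 was 0.27, with a range from -1.50 to 1.57, and the median of all genes tested was -0.01. The 4 TGF-β1 cultures all lay above the 4 vehicle cultures for 25 of the 41 genes and all below for 9, which is 82.9% without overlap against 37.9% of all genes tested. Shares called or without overlap also depend on the level of the genes, and a comparison with genes of like level was not made. A change of at least 0.5 on the log2 scale with an adjusted p under 0.05 was found for 12 members in the higher direction and 4 in the lower, against 6.15% and 7.89% of all genes. Together the 41 genes took 0.635% ± 0.0120 (SD, n = 4) of the counts with vehicle and 0.774% ± 0.00815 (n = 4) with TGF-β1. The changes were unequal along the pathway, and several steps held a gene that rose beside a close relative that fell.

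**Figure D1:**
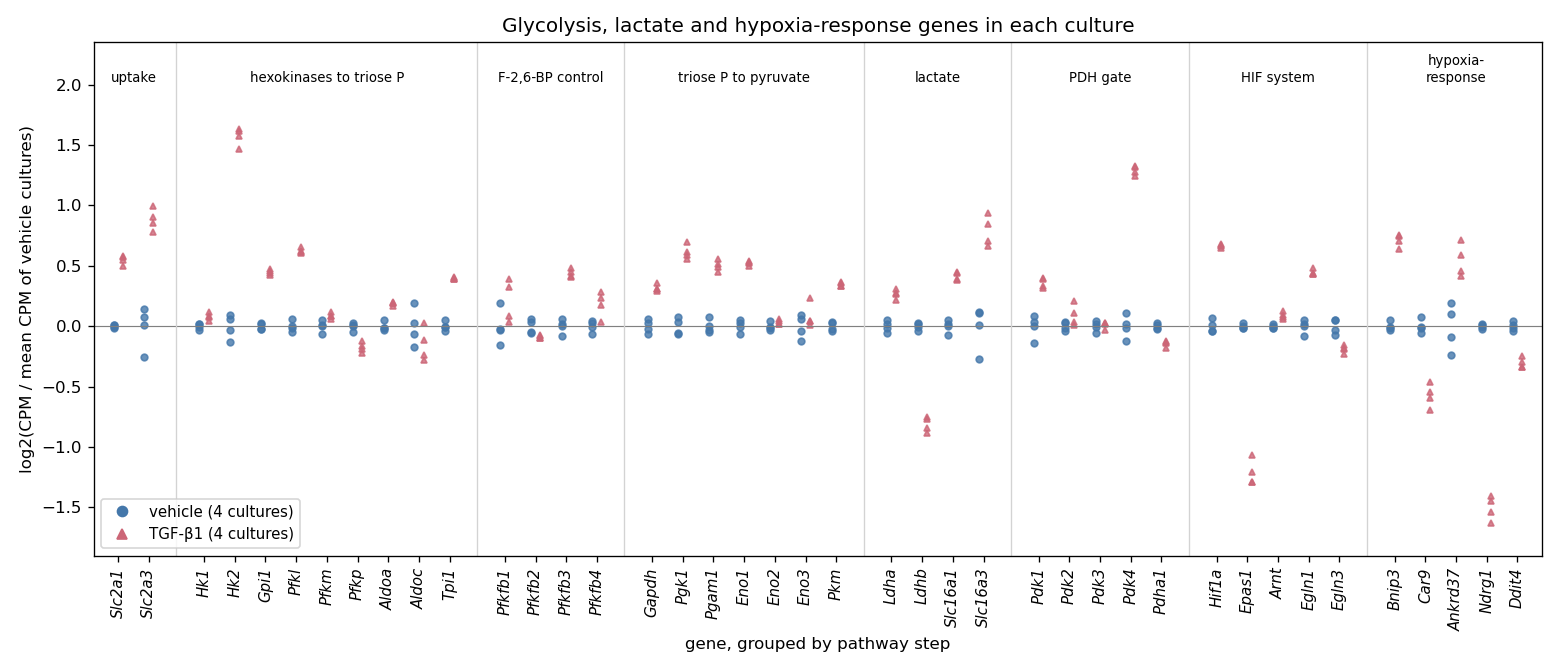
Values of the 41 genes in each culture, as log2 of the CPM over the mean CPM of the 4 vehicle cultures (y axis), by gene and pathway step (x axis); circles are vehicle cultures and triangles TGF-β1 cultures, 4 each. *Hk2* and *Pdk4* stand highest among the triangles and *Ndrg1* and *Epas1* lowest, while for *Eno2*, *Pdk3* and *Aldoc* circles and triangles overlap.

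HIF binds DNA at the core letters ACGTG or GCGTG, so the promoters of the members were searched for these letters on both strands, in the 250 bases before each RefSeq transcript start (GRCm38.p6). Windows were found for 38 of the 41 genes, 57 in all since some genes have several starts, and some windows of 1 gene overlap. *Slc2a3*, *Epas1* and *Ndrg1* had no entry. At least 1 of the letter strings was in 45 windows (78.9%), against 38.6% of the 32851 windows of 27025 genes in the table. ACGTG alone was in 25 of the 57 (43.9%, against 16.6%), GCGTG in 31 (54.4%, against 28.2%), and CACGTG, which holds ACGTG on both strands and is also the E-box letters bound by MYC, in 8 (14.0%, against 6.02%). By direction of change, 30 of the 37 windows of genes that were higher with TGF-β1 (81.1%) held ACGTG or GCGTG, and so did 6 of the 6 windows of genes that were lower (100%). A match is a description of the letters only.

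The 7 windows shown here are those of the steps on which the comparison turns, with *Ldha* and *Ldhb*, and *Bnip3* and *Car9*, as pairs that moved in opposite directions. They lie at chr6:82774455-82774704 on the minus strand (*Hk2*), chrX:106186850-106187099 on the plus strand (*Pgk1*), chr7:46845554-46845803 on the plus strand (*Ldha*, the first of its windows), chr6:142507958-142508207 on the minus strand (*Ldhb*), chr11:120948817-120949066 on the plus strand (*Slc16a3*), chr7:138909507-138909756 on the minus strand (*Bnip3*) and chr4:43506776-43507025 on the plus strand (*Car9*). Each is written 5′ to 3′ on the strand of its gene and ends at the base before the start, and capitals mark ACGTG or GCGTG, or their reverse complements CACGT and CACGC.
Hk2: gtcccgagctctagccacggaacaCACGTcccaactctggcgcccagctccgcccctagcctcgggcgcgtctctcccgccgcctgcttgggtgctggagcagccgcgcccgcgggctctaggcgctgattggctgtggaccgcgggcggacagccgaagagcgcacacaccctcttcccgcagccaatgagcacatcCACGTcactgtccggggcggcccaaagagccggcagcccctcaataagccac
Pgk1: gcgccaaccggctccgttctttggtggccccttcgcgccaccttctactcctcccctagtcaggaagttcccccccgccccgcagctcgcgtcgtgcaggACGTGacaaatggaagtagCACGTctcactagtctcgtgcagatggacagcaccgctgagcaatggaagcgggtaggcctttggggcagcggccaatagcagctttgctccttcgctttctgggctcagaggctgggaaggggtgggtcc
Ldha: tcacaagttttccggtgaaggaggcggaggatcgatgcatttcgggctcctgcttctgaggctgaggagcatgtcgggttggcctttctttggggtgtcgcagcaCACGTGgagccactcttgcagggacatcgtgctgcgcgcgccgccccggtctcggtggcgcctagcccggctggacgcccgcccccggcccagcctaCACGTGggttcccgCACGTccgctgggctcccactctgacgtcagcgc
Ldhb: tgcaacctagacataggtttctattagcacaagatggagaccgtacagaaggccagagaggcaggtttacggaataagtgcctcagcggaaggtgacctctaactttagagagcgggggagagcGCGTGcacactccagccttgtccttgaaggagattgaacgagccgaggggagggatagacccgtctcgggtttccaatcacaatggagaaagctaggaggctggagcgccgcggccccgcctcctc
Slc16a3: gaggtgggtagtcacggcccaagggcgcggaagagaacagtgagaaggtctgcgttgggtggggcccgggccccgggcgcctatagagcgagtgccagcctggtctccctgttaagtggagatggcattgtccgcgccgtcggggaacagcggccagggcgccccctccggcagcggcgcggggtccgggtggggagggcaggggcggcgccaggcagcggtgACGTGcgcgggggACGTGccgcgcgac
Bnip3: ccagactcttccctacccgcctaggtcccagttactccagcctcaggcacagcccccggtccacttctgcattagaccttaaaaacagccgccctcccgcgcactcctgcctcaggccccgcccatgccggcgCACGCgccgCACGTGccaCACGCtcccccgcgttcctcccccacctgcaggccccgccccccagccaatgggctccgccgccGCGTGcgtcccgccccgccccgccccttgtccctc
Car9: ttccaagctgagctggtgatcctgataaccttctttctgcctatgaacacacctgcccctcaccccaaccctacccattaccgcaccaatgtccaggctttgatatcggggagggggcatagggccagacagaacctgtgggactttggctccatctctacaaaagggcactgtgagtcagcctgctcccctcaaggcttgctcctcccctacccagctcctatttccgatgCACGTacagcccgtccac
The *Ldha* window holds 5 matches, where each of its 2 CACGTG, beginning 145 and 48 bases before the start, is counted on both strands. The *Ldhb* window holds a single GCGTG, 126 bases before the start. In the *Bnip3* window the 5 matches, with its 1 CACGTG again counted on both strands, lie between 117 and 35 bases before the start. *Car9* has a single match at 18. These pairs do not stand for the whole list. The windows of *Pfkp* and *Pdha1*, which were lower with TGF-β1, hold 3 matches each, as many separate sites as the *Ldha* window. Those of *Gpi1* and *Tpi1*, which were higher, hold 0.

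Both glucose transporters were higher with TGF-β1. *Slc2a1* encodes GLUT1, the broadly expressed carrier of basal glucose uptake (ENSMUSG00000028645, chr4:119108711-119137983 in GENCODE M21 on GRCm38, plus strand). It measured 50.8, 51.7, 51.2 and 51.7 CPM in the vehicle cultures and 72.5, 76.5, 76.9 and 75.3 CPM in the TGF-β1 cultures. Every TGF-β1 culture was above every vehicle culture, and the log2 fold change was 0.55 ± 0.03 (SE; edgeR adjusted p = 3.35e-19). *Slc2a3*, for the high-affinity transporter GLUT3, measured 4.08, 4.89, 5.11 and 5.35 CPM with vehicle and 9.69, 9.10, 8.34 and 8.81 CPM with TGF-β1, again without overlap (log2 fold change 0.89 ± 0.09, edgeR adjusted p = 1.48e-11). The proportional rise was larger for *Slc2a3*: the ratio of *Slc2a1* to *Slc2a3* counts fell by 0.34 on the log2 scale (exact two-sided permutation test over 70 splits of the cultures, p = 0.0286, the smallest this design can give; adjusted p over 8 such ratios 0.0286). Without the vehicle culture 1 or the TGF-β1 culture 5, that adjusted p was 0.0571. *Slc2a3* remained a minor part of the pair, at 4.38% ± 0.452 of their summed level per kb of exon with vehicle and 5.47% ± 0.452 with TGF-β1 (SD, n = 4). The summed level of both per kb was 15.3 ± 0.191 CPM with vehicle and 22.7 ± 0.504 CPM with TGF-β1. All 8 ratios tested gave this same permutation p with all cultures, and their pairs were chosen with earlier results of these data known. That p therefore does not rank the ratios.

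The first reaction of glycolysis showed the largest rise among the 41 genes. *Hk2* encodes hexokinase 2, a form bound to the outer mitochondrial membrane that is typical of muscle, fat and tumor cells (ENSMUSG00000000628, chr6:82725025-82774454, minus strand). Its values were 32.8, 35.1, 38.3 and 37.6 CPM with vehicle and 99.5, 110, 107 and 112 CPM with TGF-β1, and the log2 fold change was 1.57 ± 0.04 (2.98-fold, edgeR adjusted p = 5.27e-21). The lowest TGF-β1 culture was thus far above the highest vehicle culture. *Hk1*, the housekeeping hexokinase, went from 220 ± 3.55 to 233 ± 4.75 CPM (SD, n = 4; log2 fold change 0.08 ± 0.02, edgeR adjusted p = 0.00647), a call that was lost without the TGF-β1 culture 7 (adjusted p = 0.0559). Per kb of exon, *Hk2* made up 18.9% ± 1.13 of the level of *Hk1* and *Hk2* with vehicle and 39.7% ± 1.39 with TGF-β1, and the ratio of *Hk2* to *Hk1* counts was 2.82-fold higher (exact permutation test, p = 0.0286; adjusted p = 0.0286). The level of both hexokinases summed, per kb, was 31.8 ± 0.559 CPM with vehicle and 45.2 ± 0.956 CPM with TGF-β1. *Hk1* therefore stayed the larger in all 8 cultures, with 58.7% to 62.0% of the summed level in the TGF-β1 cultures.

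Glucose phosphate isomerase (*Gpi1*), which makes fructose 6-phosphate, was higher at 252 ± 4.96 CPM with vehicle and 343 ± 5.30 CPM with TGF-β1 (log2 fold change 0.45 ± 0.02, edgeR adjusted p = 1.32e-20). The phosphofructokinase genes moved apart. *Pfkl*, for the liver-type subunit, measured 116, 113, 117 and 122 CPM with vehicle and 185, 181, 178 and 179 CPM with TGF-β1 (log2 fold change 0.63 ± 0.03, edgeR adjusted p = 1.00e-23), with a wide gap between the groups. *Pfkp*, for the platelet-type subunit, was lower, at 202 ± 4.31 and 179 ± 4.80 CPM (log2 fold change -0.17 ± 0.03, edgeR adjusted p = 1.71e-07). The muscle-type *Pfkm* differed little, at 62.1 ± 2.03 and 65.9 ± 1.10 CPM, and its adjusted p of 0.0247 (edgeR) rose to between 0.0592 and 0.0939 without the vehicle culture 1 or the TGF-β1 culture 5 or 7. In CPM, *Pfkp* was the largest of the 3 with vehicle. Per kb, the 3 subunits were near to evenly split with vehicle (*Pfkl* 34.3% ± 0.358, *Pfkm* 36.3% ± 0.716, *Pfkp* 29.4% ± 0.534), whereas with TGF-β1 *Pfkl* took 45.0% ± 0.336 and *Pfkp* 22.2% ± 0.315. These shares rest on the summed length of all annotated exons (6675 bases for *Pfkl*, 3340 for *Pfkm*, 13401 for *Pfkp*), and the lengths of the transcripts present were not tested. The *Pfkp* to *Pfkl* count ratio was 0.575 times its vehicle value (exact permutation test, p = 0.0286; adjusted p = 0.0286). The enzyme is a tetramer of these subunits, and the counts give their transcripts only.

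Aldolase and triose phosphate isomerase close the preparatory stage. *Aldoa*, the most abundant gene of that stage per kb of exon, measured 518, 523, 524 and 546 CPM with vehicle and 606, 604, 605 and 593 CPM with TGF-β1 (log2 fold change 0.19 ± 0.02, edgeR adjusted p = 9.95e-10). The groups did not overlap, although the rise was among the smaller ones of the pathway. *Aldoc*, the brain aldolase, was detected at 2.50 to 3.23 CPM with vehicle and 2.33 to 2.88 CPM with TGF-β1 and was not called (edgeR adjusted p = 0.414). *Tpi1* was higher at 237 ± 6.67 and 312 ± 2.30 CPM (log2 fold change 0.40 ± 0.02, edgeR adjusted p = 1.75e-18).

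The PFKFB enzymes make and remove fructose 2,6-bisphosphate, the strongest activator of phosphofructokinase, and *Pfkfb3* is the form whose kinase activity most exceeds its phosphatase activity. *Pfkfb3* was higher, at 18.8 ± 0.764 CPM with vehicle and 25.4 ± 0.608 CPM with TGF-β1 (log2 fold change 0.44 ± 0.05, edgeR adjusted p = 3.22e-10). *Pfkfb2*, the most abundant of the 4 per kb, measured 29.5, 31.1, 31.8 and 29.3 CPM with vehicle and 29.0, 28.8, 28.5 and 28.5 CPM with TGF-β1. Its groups did not overlap, yet they were close together and the test did not call it (log2 fold change -0.08 ± 0.04, edgeR adjusted p = 0.115). About 17.4% of its exon bases are shared with other genes on the same strand, so its count is uncertain. *Pfkfb4* was called (0.19 ± 0.07, edgeR adjusted p = 0.0345) with overlapping groups, and the call was lost without any of 5 of the cultures in turn (vehicle 1 or 2, TGF-β1 6, 7 or 8; adjusted p 0.0553 to 0.108). *Pfkfb1* was not called (edgeR adjusted p = 0.114). *Pfkfb3* made up 26.1% ± 0.984 of the level of the 4 genes per kb with vehicle and 31.8% ± 0.869 with TGF-β1.

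In the lower stage, from GAPDH to pyruvate kinase, the abundant form at every step was higher with TGF-β1. *Pgk1*, for phosphoglycerate kinase 1, the first ATP-producing enzyme (ENSMUSG00000062070, chrX:106187100-106203699, plus strand), measured 276, 274, 294 and 302 CPM with vehicle and 464, 438, 432 and 420 CPM with TGF-β1. *Pgam1*, a phosphoglycerate mutase, measured 119, 117, 122 and 128 CPM with vehicle and 170, 178, 173 and 166 CPM with TGF-β1. *Eno1*, the ubiquitous enolase, measured 548, 570, 584 and 594 CPM with vehicle and 835, 824, 829 and 811 CPM with TGF-β1. For these 3 genes the groups stood well apart. Their log2 fold changes were 0.61 ± 0.03 (edgeR adjusted p = 2.33e-13), 0.50 ± 0.03 (1.14e-19) and 0.52 ± 0.02 (4.13e-23) in that order. *Pkm*, pyruvate kinase of muscle and most other tissues, had the highest level of all members, at 234 CPM per kb of exon averaged over the 8 cultures. Its values were 1003, 1013, 1049 and 1057 CPM with vehicle and 1324, 1325, 1298 and 1295 CPM with TGF-β1, a rise of 0.35 ± 0.02 on the log2 scale (edgeR adjusted p = 5.14e-18). *Gapdh*, often used as a reference gene, was also higher, at 669 ± 25.1 and 833 ± 16.1 CPM (0.32 ± 0.02, edgeR adjusted p = 2.99e-15).

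The neuronal and muscle enolases did not follow. *Eno2* was at 69.4 ± 1.64 and 71.3 ± 1.05 CPM (edgeR adjusted p = 0.347) and *Eno3* at 37.8 ± 2.52 and 40.1 ± 2.88 CPM (edgeR adjusted p = 0.161), with overlapping groups. *Eno3* would have been called higher without the vehicle culture 1 (edgeR adjusted p = 0.0462). The ratio of *Eno1* to *Eno2* counts was 1.40-fold higher (exact permutation test, p = 0.0286; adjusted p = 0.0286), and *Eno1* went from 74.5% ± 1.31 to 80.1% ± 0.647 of the enolase level per kb. Several lower-stage genes share sequence with pseudogenes or other genes: 53.9% of the 50-base words of *Pgk1* transcripts, 36.2% of *Pgam1*, 26.0% of *Eno1*, 25.8% of *Pkm* and 24.7% of *Gapdh* also occur elsewhere in the annotated transcripts. The gene sharing most with *Pgk1* had a mean of 5.75 counts against 16751 for *Pgk1* itself, while a gene on the same strand within the *Pkm* locus had 3742 against 54110. How reads that fit several genes were counted is not given in the sources used here, so these values carry that uncertainty.

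The 16 glycolytic enzyme genes from the hexokinases to *Pkm* gave 12 genes that were higher with TGF-β1, 1 that was lower (*Pfkp*) and 3 that were not called (*Aldoc*, *Eno2* and *Eno3*). The higher calls were 75.0% of the 16 against 20.9% of all genes tested, and the lower call 6.25% against 20.3%. Their median log2 fold change was 0.33. Summed, they took 0.437%, 0.440%, 0.447% and 0.459% of the counts in the vehicle cultures and 0.577%, 0.565%, 0.568% and 0.564% in the TGF-β1 cultures. The lowest TGF-β1 culture was above the highest vehicle culture, and the spread within each group was small beside the gap.

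At the lactate step the pair of lactate dehydrogenase genes moved in opposite directions. *Ldha* encodes the M subunit, which favors the reduction of pyruvate to lactate, and *Ldhb* the H subunit, which favors the reverse reaction. *Ldha* measured 428, 441, 451 and 463 CPM with vehicle and 552, 539, 537 and 519 CPM with TGF-β1 (log2 fold change 0.27 ± 0.02, edgeR adjusted p = 7.79e-13). *Ldhb* (ENSMUSG00000030246, chr6:142490249-142507957, minus strand) measured 82.6, 81.1, 84.4 and 84.6 CPM with vehicle and 49.0, 49.3, 46.5 and 45.1 CPM with TGF-β1 (log2 fold change -0.81 ± 0.03, edgeR adjusted p = 2.40e-24). Neither gene's groups overlapped, and *Ldhb* lost 42.9% of its vehicle level while *Ldha* gained 20.4%. In CPM the pair summed to more with TGF-β1: *Ldha* averaged 446 and then 537 CPM, *Ldhb* 83.2 and then 47.5 CPM. Division by exon length weighs a count of *Ldha* (3310 bases) less than one of *Ldhb* (1570 bases). Summed per kb of exon in that way, the family stood at 188 ± 5.25 CPM with vehicle and 192 ± 5.21 CPM with TGF-β1, a difference smaller than either SD. Within it, *Ldhb* went from 28.2% ± 0.487 to 15.7% ± 0.339, and the ratio of *Ldha* to *Ldhb* per kb from 2.54 to 5.37 (counts, 2.11-fold higher; exact permutation test, p = 0.0286; adjusted p = 0.0286). About 21.0% of the 50-base words of *Ldhb* also occur in another gene, whose mean count was 2.38.

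Both lactate exporters were higher. *Slc16a1* encodes MCT1, a transporter that carries lactate in either direction, and went from 66.1 ± 2.33 to 88.3 ± 2.12 CPM (log2 fold change 0.42 ± 0.03, edgeR adjusted p = 1.88e-15). *Slc16a3*, for the lactate exporter MCT4 of glycolytic cells, measured 10.7, 10.7, 8.19 and 9.97 CPM with vehicle and 19.0, 16.1, 17.8 and 15.7 CPM with TGF-β1 (log2 fold change 0.79 ± 0.07, edgeR adjusted p = 3.37e-11). The vehicle culture 3 was the lowest, and every TGF-β1 culture was above the highest vehicle culture. *Slc16a3* took 11.1% ± 1.48 of the level of the pair per kb with vehicle and 13.9% ± 1.03 with TGF-β1, and the ratio of *Slc16a3* to *Slc16a1* counts was 1.30-fold higher (exact permutation test, p = 0.0286; adjusted p = 0.0286). That call was not kept in every setting: leaving out the vehicle culture 3 or any TGF-β1 culture gave an adjusted p of 0.0571. The smallest possible p is 0.0286 there as well, so in those settings another split of the cultures gave at least as large a difference. Of the chaperones that bring these transporters to the membrane, *Bsg* was slightly higher (log2 fold change 0.12 ± 0.02, edgeR adjusted p = 2.26e-05) and *Emb* was lower (-0.66 ± 0.03, edgeR adjusted p = 8.18e-22).

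**Figure D2:**
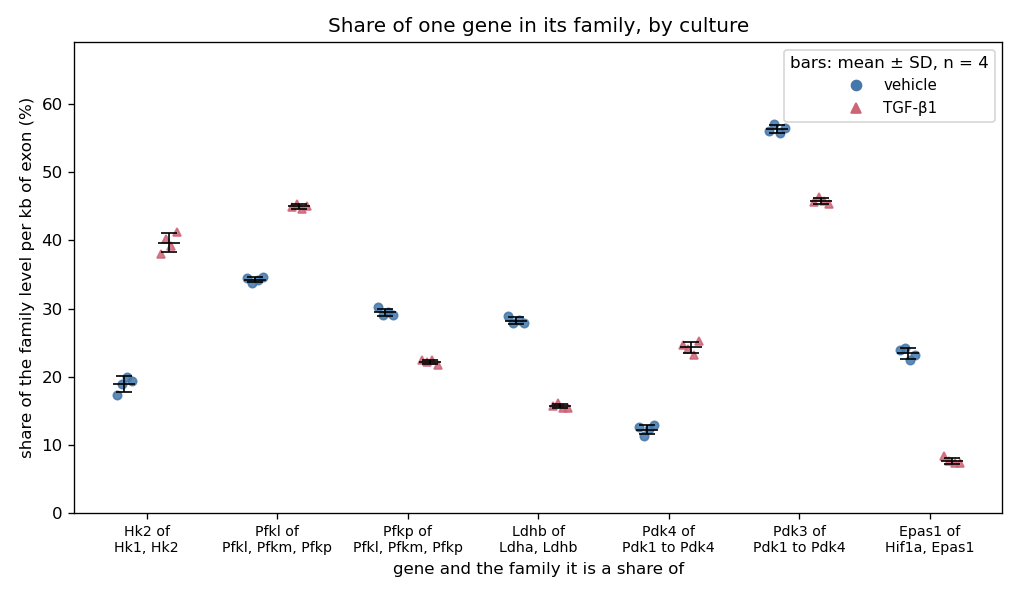
Share of a gene in the summed CPM per kb of exon of its family (y axis, percent), for 7 genes (x axis); circles are the 4 vehicle cultures, triangles the 4 TGF-β1 cultures, and bars the mean ± SD. *Hk2*, *Pfkl* and *Pdk4* took larger shares with TGF-β1, and *Pfkp*, *Ldhb*, *Pdk3* and *Epas1* smaller ones, without overlap between the groups.

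At the entry of pyruvate into mitochondria, the kinases that switch off pyruvate dehydrogenase differed among themselves. *Pdk4*, the kinase known for its response to fasting and fatty acids (ENSMUSG00000019577, chr6:5483351-5496309, minus strand), measured 16.8, 15.6, 17.2 and 18.3 CPM with vehicle and 42.5, 41.2, 40.2 and 42.3 CPM with TGF-β1. The groups were far apart, and the change of 1.29 ± 0.05 on the log2 scale (2.45-fold, edgeR adjusted p = 2.49e-26) was second only to that of *Hk2* among the rises of the 41 genes. *Pdk1*, a known HIF target, was also higher, at 49.0 ± 3.16 and 62.9 ± 1.87 CPM (0.36 ± 0.04, edgeR adjusted p = 7.53e-11). *Pdk2* (0.09 ± 0.05, edgeR adjusted p = 0.161) and *Pdk3* (0.01 ± 0.03, edgeR adjusted p = 0.855) were not called, and the sign of *Pdk3* turned in 3 of the other settings. Per kb, *Pdk3* was the most abundant kinase in both groups but went from 56.3% ± 0.568 to 45.8% ± 0.385 of the 4 kinases, while *Pdk4* went from 12.3% ± 0.710 to 24.3% ± 0.852. Their target *Pdha1*, the catalytic α subunit of pyruvate dehydrogenase, measured 186, 186, 190 and 192 CPM with vehicle and 171, 173, 166 and 172 CPM with TGF-β1 (log2 fold change -0.14 ± 0.02, edgeR adjusted p = 3.69e-06). It was lower in every TGF-β1 culture, by a small amount. Exons on the opposite strand cover 16.1% of its exon bases, and the strand setting of the count is not given in the sources used here.

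Of 10 other genes of mitochondrial pyruvate entry, 2 were higher and 3 lower (5 of 10 called, near the 41.3% of all genes tested), with a median log2 fold change of -0.04. The largest called changes were those of *Pcx*, pyruvate carboxylase, at -0.46 ± 0.03 (edgeR adjusted p = 1.97e-18), *Pdp1*, a phosphatase that reactivates pyruvate dehydrogenase, at -0.30 ± 0.05 (6.14e-06), and *Dlat*, the E2 subunit of the complex, at 0.20 ± 0.03 (1.08e-06). The pyruvate carrier genes *Mpc1* (edgeR adjusted p = 0.247) and *Mpc2* (0.378) were not called.

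The HIF system itself split between its α subunits. *Hif1a* (ENSMUSG00000021109, chr12:73901375-73947530, plus strand) measured 221, 221, 237 and 228 CPM with vehicle and 361, 363, 360 and 355 CPM with TGF-β1 (log2 fold change 0.67 ± 0.02, edgeR adjusted p = 5.03e-26). *Epas1*, which encodes HIF-2α and is typical of vascular cells (ENSMUSG00000024140, chr17:86753700-86833410, plus strand), measured 65.9, 67.0, 65.0 and 65.3 CPM with vehicle and 31.3, 28.5, 26.9 and 26.9 CPM with TGF-β1 (log2 fold change -1.21 ± 0.04, edgeR adjusted p = 1.53e-27). All TGF-β1 cultures were above all vehicle cultures for *Hif1a* and below them for *Epas1*. The *Epas1* to *Hif1a* count ratio was 0.272 times its vehicle value (exact permutation test, p = 0.0286; adjusted p = 0.0286). Per kb, *Epas1* made up 23.4% ± 0.818 of the α subunit level with vehicle and 7.68% ± 0.486 with TGF-β1, and the pair summed to 50.2 ± 1.19 and 66.1 ± 0.889 CPM. The protein of both is set largely by degradation, which these data do not measure.

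*Arnt*, the shared partner, was at 150 ± 1.84 and 159 ± 3.21 CPM (0.09 ± 0.03, edgeR adjusted p = 0.00426). Of the prolyl hydroxylases that mark the α subunits for removal, *Egln1* was higher, at 54.0 ± 2.12 and 73.6 ± 1.17 CPM (0.45 ± 0.03, edgeR adjusted p = 1.07e-15), and *Egln3* was lower, at 39.7 ± 1.63 and 34.8 ± 0.823 CPM (-0.19 ± 0.04, edgeR adjusted p = 0.000118). Both are known HIF targets, and they moved in opposite directions. Among 7 other genes of the system, 2 were higher and 4 lower (85.7% called, against 41.3% of all genes). The largest changes were those of *Cited4*, at -2.56 ± 0.15 (edgeR adjusted p = 2.08e-18), *Hif3a*, at -0.65 ± 0.06 (1.62e-06), and *Cited2*, at -0.29 ± 0.03 (2.57e-12). CITED proteins compete with HIF for the coactivators CBP and p300, and *Hif3a* encodes a further α subunit with inhibitory splice forms.

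**Figure D3:**
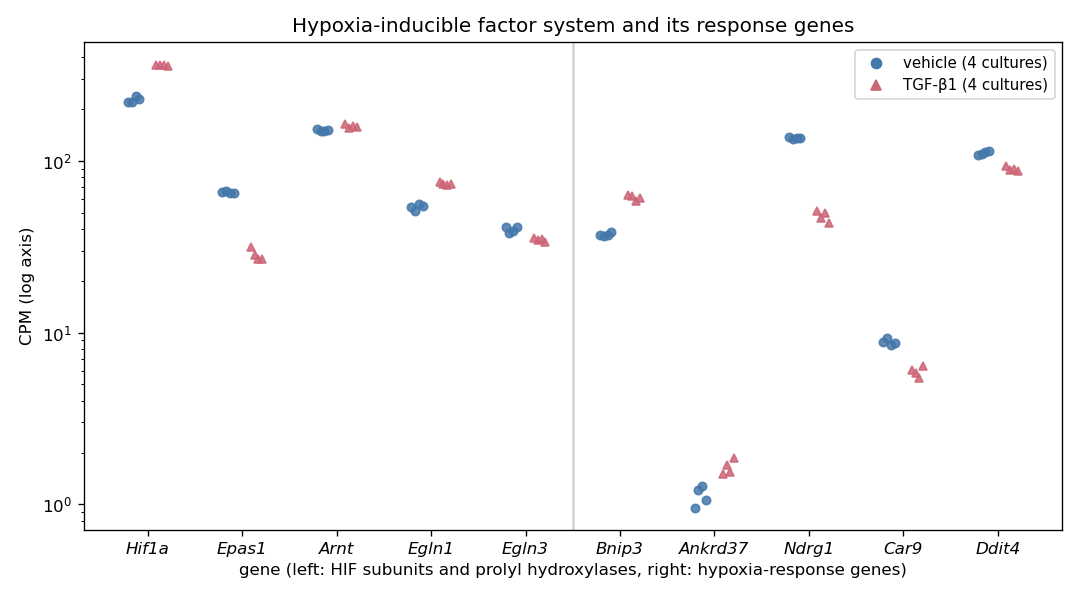
CPM of the 5 HIF system genes (left) and the 5 hypoxia-response genes (right) in each culture, on a log axis; circles are the 4 vehicle cultures and triangles the 4 TGF-β1 cultures. *Hif1a* and *Bnip3* were higher with TGF-β1, *Epas1* and *Ndrg1* were lower, and *Ankrd37* lay near 1 CPM.

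The 5 hypoxia-response genes did not move together: 2 were higher (40.0%, against 20.9% of all genes tested) and 3 were lower (60.0%, against 20.3%). Their median log2 fold change was -0.31. *Ndrg1*, a stress- and hypoxia-induced gene linked to differentiation (ENSMUSG00000005125, chr15:66929318-66969640, minus strand), had the largest fall of the 41. It measured 137, 134, 135 and 137 CPM with vehicle and 51.1, 46.7, 49.7 and 43.8 CPM with TGF-β1 (log2 fold change -1.50 ± 0.03, edgeR adjusted p = 4.40e-31). *Bnip3*, a mitophagy receptor, measured 37.0, 36.6, 37.1 and 38.7 CPM with vehicle and 62.9, 62.8, 58.3 and 60.9 CPM with TGF-β1 (0.71 ± 0.04, edgeR adjusted p = 3.58e-21). *Ndrg1* and *Bnip3* are both HIF targets and changed in opposite directions, each without overlap between the groups. *Car9*, the membrane carbonic anhydrase often used as a marker of hypoxia, measured 8.79, 9.32, 8.46 and 8.71 CPM with vehicle and 6.05, 5.86, 5.46 and 6.41 CPM with TGF-β1 (-0.57 ± 0.08, edgeR adjusted p = 9.39e-08), so it was lower in all 4. *Ddit4*, an inhibitor of mTORC1 signaling and the most abundant of the 5 per kb, measured 108, 110, 112 and 114 CPM with vehicle and 93.7, 87.9, 90.2 and 87.7 CPM with TGF-β1 (-0.31 ± 0.03, edgeR adjusted p = 2.59e-12). *Ankrd37* rested on 44 to 87 counts per culture, at 0.955, 1.21, 1.28 and 1.06 CPM with vehicle and 1.51, 1.70, 1.55 and 1.85 CPM with TGF-β1 (0.55 ± 0.18, edgeR adjusted p = 0.0107). Its groups did not overlap, but 26.4% of its exon bases lie opposite exons of other genes, and the call was lost with counts halved and DESeq2 (adjusted p = 0.0801). For *Bnip3* the share opposite other exons was 22.3%.

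In a wider list of 31 HIF targets, 30 were tested (*Epo* was not). Most of the 30 were higher: 21 were called so, a far larger share than the 20.9% of all genes tested. Another 5 were lower (16.7%, against 20.3%) and 4 were not called. The median log2 fold change of the 30 was 0.40. The genes called higher included *Nos2*, inducible nitric oxide synthase, at 1.65 ± 0.06 (edgeR adjusted p = 1.84e-21), and *Ak4*, a mitochondrial adenylate kinase, at 1.54 ± 0.07 (1.48e-22). The steepest fall was that of *Adm*, adrenomedullin, at -0.91 ± 0.05 (edgeR adjusted p = 4.91e-20), a gene singled out after its values were seen.

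Other genes around glycolysis, outside the HIF lists, numbered 60, and 56 were tested. Of these, 17 were higher (30.4%, against 20.9% of all genes tested) and 17 lower (30.4%, against 20.3%), with a median log2 fold change of -0.01. With the HIF lists added, 40 of the 93 genes tested were higher (43.0%) and 26 lower (28.0%). Among 19 tested hexose transporters and tissue-restricted isoenzymes, 3 were higher and 7 lower (52.6% called, against 41.3% of all genes), led by *Slc2a12* at -1.07 ± 0.13 (edgeR adjusted p = 4.75e-09), *Bpgm*, which makes 2,3-bisphosphoglycerate, at 0.98 ± 0.05 (1.15e-17), and the pyruvate and lactate transporter *Slc16a7* (MCT2) at -0.71 ± 0.08 (5.64e-10). *Hk3*, *Pgk2* and *Pklr* were among those below the filter on low counts, and the remaining isoenzyme genes included 9 that were not called. In the pentose phosphate pathway, 3 of 7 genes were higher and 1 was lower (57.1% called): *Tkt*, transketolase, at 0.44 ± 0.03 (edgeR adjusted p = 5.34e-18), *G6pdx*, which encodes the entry enzyme, at 0.26 ± 0.03 (1.13e-07), and *Pgd*, for the next oxidative step, at -0.16 ± 0.02 (1.57e-07) changed most. In glycogen metabolism 5 of 12 genes were higher and 3 lower (66.7% called). There, *Pygl*, liver glycogen phosphorylase, was at 1.15 ± 0.21 (edgeR adjusted p = 9.41e-06), *Pygb*, the brain form, at -0.55 ± 0.03 (1.08e-21), and *Gys1*, glycogen synthase, at 0.51 ± 0.03 (3.77e-17). *Pygb* was the more abundant phosphorylase, at 185 ± 5.79 and 126 ± 3.05 CPM, and *Pygl* was at 0.795 ± 0.263 and 1.78 ± 0.328 CPM. Of 8 glucose-sensing genes, 4 were higher and 3 lower (87.5% called), led by *Mlxipl*, for the glucose-responsive factor ChREBP, at 0.75 ± 0.18 (edgeR adjusted p = 0.000686), *Myc* at 0.61 ± 0.03 (2.78e-20) and *Txnip*, an inhibitor of glucose uptake, at -0.60 ± 0.03 (8.30e-20).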

How the data were processed

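Gene counts were available for 8 mouse brain pericyte cultures. The authors aligned reads to mm10 with STAR 2.7.5c (two-pass mode), dropped PCR duplicates using SAMtools 1.15, counted with featureCounts 2.0.3 (Subread) and deposited these raw counts per gene without normalization. The annotation, strand setting and handling of shared reads are not given in the sources used here. Of 54532 identifiers, 54409 were paired with a symbol, and 54495 had a position in GENCODE M21. *Aldoa* has 2 identifiers, and the one with the larger exon length was used (57 to 93 counts fall on the other).

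Counts were tested in R 4.3.3 with edgeR 4.0.16 (filterByExpr, TMM, robust quasi-likelihood test), with Benjamini-Hochberg adjustment over 22544 genes and a threshold of 0.05. CPM is the count over the library size times its TMM factor, and CPM per kb divides by the summed exon length. That length covers all annotated exons of a gene, so shares and sums per kb between relatives depend on the annotation. For 8 paralogue pairs, log2 count ratios went into an exact permutation test (two-sided). The code was tested on simulated data.

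The members, lists and pairs were chosen with earlier results of these data known. Values per culture are given for called members with a log2 change of at least 0.5 and for the highest gene per kb of each step, and for other lists the 3 largest called changes. Some genes that fall under this rule are not reported here. Pairs of libraries within a group gave a chi-square of 2.25 to 3.93 per degree of freedom over their counts (1.14 to 2.10 with counts halved), above sampling noise, so each was kept as 1 sample. Alternatives were DESeq2 1.42.0, other scalings and filters, halved counts and leaving out each culture.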

Additional observations from a re-analysis of the deposited data

Results flagged for a closer look

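In 100 groups of 4 cultures examined, chance alone is expected to set a culture apart in about 5, and 2 were found. *Aldoa* was lowest in the TGF-β1 culture 8, at 593 CPM against 604 CPM for the nearest of the other 3, a gap of 0.901 of the group's range. That range was narrow, and all 4 cultures stayed above the vehicle cultures. *Eno3* was highest in the TGF-β1 culture 5, at 44.3 CPM against 39.0 CPM for the nearest, a gap of 0.843 of the range.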

How the results depend on the processing

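Across 16 other settings, the counts of genes called in each direction over all genes, the members and the other lists stayed within 1.5 times their reported values. Of the 41 members, 34 had both the reported call and the reported direction in every setting. The 7 that did not were *Hk1*, *Pfkm*, *Pfkfb1*, *Pfkfb4*, *Eno3*, *Pdk3* and *Ankrd37*, and apart from *Ankrd37* their changes were within 0.29 of 0 on the log2 scale. *Pdk3*, not called in any setting, changed sign with library totals as the only scaling (-0.00159), without the TGF-β1 culture 7 (-0.000462) and without the vehicle culture 1 (-0.00457), and ranged up to 0.0303 without the TGF-β1 culture 8. *Pfkm* and *Pfkfb4* also lost their calls with every gene of at least 1 count tested (edgeR adjusted p = 0.0658 and 0.0630) and with halved counts and DESeq2 (0.0730 and 0.132), and *Pfkfb1* was called without the vehicle culture 2 (edgeR adjusted p = 0.0465). Leaving out each culture gave log2 changes of -0.386 to -0.264 for the *Slc2a1* to *Slc2a3* ratio, 0.285 to 0.390 for *Aldoa* to *Aldoc* (0.334 with all cultures, exact permutation p = 0.0286; adjusted p = 0.0286) and 0.277 to 0.447 for *Slc16a3* to *Slc16a1*. All 3 kept their direction, but the adjusted p rose to 0.0571 without the vehicle culture 1 or the TGF-β1 culture 5 for the first, without any culture except the TGF-β1 culture 5 for the second, and without the vehicle culture 3 or any TGF-β1 culture for the last. The smallest possible p is 0.0286 in these settings as well, so another split of the cultures gave at least as large a difference. What each culture contributes was not tested further. The other 5 ratios stayed under 0.05. No scaling moved the median of all genes by more than 0.0110 on the log2 scale. No paired analysis was possible because the vehicle and TGF-β1 cultures share no replicate number. Depth limits mainly *Ankrd37*, *Aldoc*, *Pfkfb1*, *Car9* and *Slc2a3*, which had between 44 and 444 counts per culture.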
